A study of Mus musculus with 16 samples.

Results

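The genes of the MEF2 factors (Mef2a, Mef2c, Mef2d), of serum response factor and its partner myocardin (Srf, Myocd) and of the class II histone deacetylases Hdac4, Hdac5 and Hdac9 were followed through peak lists of H3K27Ac, the acetylation of histone H3 lysine 27 that marks active promoters and enhancers. A peak belonged to a gene when the deposited annotation named that gene as the nearest transcription start. By this rule the 8 genes, of 10927 with any peak, held 81 of 53959 peaks over the 4 lists. The lists came from chromatin immunoprecipitation and sequencing (ChIP-seq) of adult cardiomyocytes, freed from the hearts of 3-month-old mice by enzymatic perfusion. The mice were Des+/+ or Des-/-, the latter lacking desmin, the intermediate filament protein of muscle, and were either unstressed (basal) or had swum as a stress exercise (swim). Each genotype and condition had 1 H3K27Ac library, made from chromatin of several mice, and 1 matching input library of chromatin that was not precipitated. The lists therefore have no replicate check, no test was possible, and all intervals are 95% intervals for counting error only.

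MEF2 proteins and SRF belong to the MADS-box family of transcription factors. MEF2 proteins bind A/T-rich sites in the control regions of muscle genes, SRF binds the CArG box, and myocardin joins SRF to activate muscle genes. Class IIa histone deacetylases, which include HDAC4, HDAC5 and HDAC9, bind MEF2 and repress its targets, and phosphorylation by stress-activated kinases sends them out of the nucleus.

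The basal lists of Des+/+ and Des-/- held 15757 and 16638 peaks, and the swim lists 11157 and 10407. Peak height is the read coverage at the summit of a peak, and its median over all peaks was 20 to 23 reads per list, with 15 reads as the smallest height in every list. Counting error alone puts a height of 15 reads between 8.40 and 24.7 reads (exact Poisson). Mean input height under the peaks was 2.80 to 3.06 reads in 3 lists and 5.48 reads in Des-/- swim. Where 4 values follow one another, they are for Des+/+ basal, Des-/- basal, Des+/+ swim and Des-/- swim. Of 8 cardiomyocyte marker genes, 8, 8, 8 and 6 had a peak, and Actn2 and Myl2 were the 2 without a peak in Des-/- swim. Endothelial marker genes had a peak in 5, 5, 4 and 3 of 5 cases, fibroblast marker genes in 1, 3, 0 and 0 of 6, and the 5 leukocyte and 5 smooth muscle and pericyte marker genes in none. The part of these cells and of input in the results was not tested. Acetylation at the Des gene itself, with highest peaks of 30, 46, 24 and 37 reads, does not check the deletion.

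H3K27Ac peaks of the 8 genes lay mainly near transcription starts, as did peaks in general, and fewer bases were under peaks in the swim lists than in the basal lists. The members had 25, 22, 21 and 13 peaks. Of these, 17, 12, 17 and 12 lay within 3 kb of a transcription start, which is 68.0%, 54.5%, 81.0% and 92.3%, against 71.5%, 71.2%, 74.4% and 77.3% of all peaks. The peaks covered 36.7, 38.0, 24.1 and 22.5 kb, so the last 3 lists stood at 104%, 65.7% and 61.5% of the acetylated length of Des+/+ basal. The same percentages over all peaks were 107%, 63.6% and 60.8%, close to those of the members. By peak number, the members stood at 88.0%, 84.0% and 52.0% of Des+/+ basal, against 106%, 70.8% and 66.0% over all peaks. Some member peaks were pieces of a longer stretch. With member peaks at most 200 bp apart counted as 1, the lists held 22, 19, 16 and 9. With every list cut to its 10407 highest peaks, the members held 12, 9, 20 and 13 peaks, so the order of basal and swim turned around.

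A peak in all 4 lists was seen at 6 of the 8 genes (Mef2a, Mef2c, Mef2d, Srf, Hdac4 and Hdac5), compared with 52.6% of all genes with a peak. Myocd had peaks in every list but Des-/- swim, a pattern of 8.75% of all genes, and Hdac9 had peaks in the basal lists and in neither swim list, a pattern of 11.8% of all genes. Merged over the lists, the member peaks formed 32 regions, of which 9 appeared in all 4 lists and 15 in 1 list. These were 28.1% and 46.9% of the member regions, against 37.7% and 28.2% of the 18277 regions of the genome. Low peaks made up more of the member peaks than of all peaks in both basal lists, a near-equal share in Des+/+ swim and a smaller one in Des-/- swim. In Des+/+ basal 40.0% of member peaks were 15 to 17 reads high, against 25.3% of all peaks, in Des-/- basal these shares were 36.4% and 25.4%, in Des+/+ swim 33.3% and 31.9%, and in Des-/- swim 15.4% and 23.0%.

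**Figure D1:**
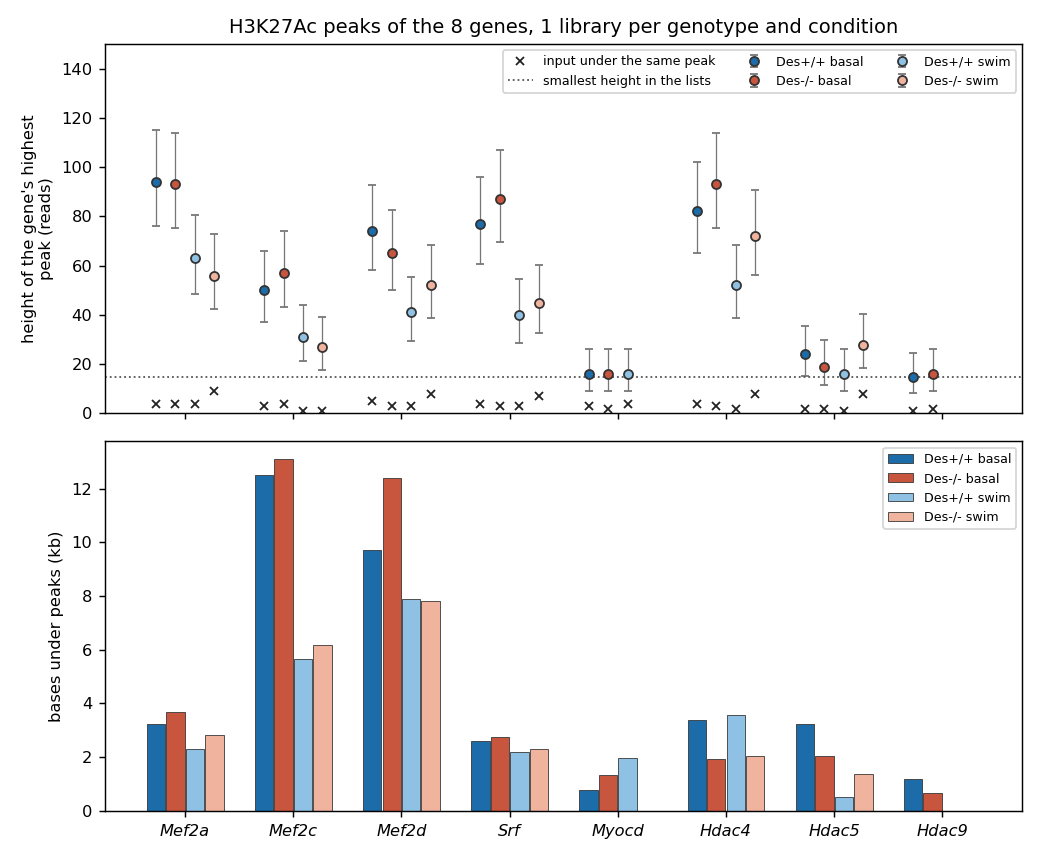
The upper panel plots the height in reads of the highest peak of each gene in each list, with exact 95% Poisson intervals and the input height as crosses, and the lower panel plots the kilobases under peaks. Basal heights of 94 and 93 reads at Mef2a and 82 and 93 reads at Hdac4 stand against 15 or 16 reads at Myocd and Hdac9, and Mef2c and Mef2d have the longest acetylated stretches.

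A selection of the sites that these factors recognise is shown here. The sites were taken from peaks at the promoters and in the introns described for each gene. Whether they bear on those peaks was not tested. Further MEF2 sites, such as those under peaks in the downstream Mef2c promoter, in Mef2d intron 1 and at Hdac4, are not printed. All sequences are from RefSeq GRCm38.p6, the build of the peak lists, read 5′ to 3′ on the strand of the gene, with matches to the CArG box or the MEF2 site in capitals. Both strands were searched, and overlapping matches were allowed. The first is the Srf promoter stretch at chr17:46556215-46556244 (minus strand), which holds both CArG boxes, beginning 82 and 62 bases before the start. The second is the window of 250 bases before the Hdac5 start at chr11:102230173-102230422 (minus strand), with a MEF2 site beginning 20 bases before the start. The third, at chr7:67372841-67372870 (minus strand), spans the Mef2a start. The others are an upstream stretch of Mef2d at chr3:88140743-88140852 (plus strand), introns 2 and 4 of Mef2c at chr13:83566465-83566574 and chr13:83603925-83604056 (plus strand) and intron 1 of Hdac9 at chr12:34517183-34517292 (minus strand). The Srf stretch lies in the first exon of a predicted RefSeq Srf transcript, and the Mef2c intron 4 stretch in an exon of the predicted noncoding gene Gm52043.
Srf promoter: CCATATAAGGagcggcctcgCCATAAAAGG
Hdac5 promoter: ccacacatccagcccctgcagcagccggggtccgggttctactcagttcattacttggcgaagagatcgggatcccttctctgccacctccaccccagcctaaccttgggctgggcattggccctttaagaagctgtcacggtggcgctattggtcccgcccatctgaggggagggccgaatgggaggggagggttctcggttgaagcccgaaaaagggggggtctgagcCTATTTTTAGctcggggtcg
Mef2a start: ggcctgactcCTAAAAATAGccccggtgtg
Mef2d upstream: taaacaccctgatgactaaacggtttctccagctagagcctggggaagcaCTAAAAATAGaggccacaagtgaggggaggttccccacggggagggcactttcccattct
Mef2c intron 2: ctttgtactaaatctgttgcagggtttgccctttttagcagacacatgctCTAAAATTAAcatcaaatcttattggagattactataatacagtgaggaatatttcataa
Mef2c intron 4: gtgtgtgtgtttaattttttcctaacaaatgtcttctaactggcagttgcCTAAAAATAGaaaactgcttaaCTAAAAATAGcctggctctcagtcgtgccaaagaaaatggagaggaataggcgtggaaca
Hdac9 intron 1: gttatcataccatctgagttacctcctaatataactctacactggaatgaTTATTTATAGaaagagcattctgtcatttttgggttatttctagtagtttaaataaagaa

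Both CArG boxes of Srf and the MEF2 sites of Mef2a and Mef2d lay under a peak in all 4 lists. The MEF2 site of Hdac5 was covered in 3 lists, by peaks assigned to the microRNA gene Mir8101, and fell between adjoining Hdac5 peaks in Des-/- swim. The Hdac9 site was covered in Des+/+ basal and in no other list. The Mef2c intron 2 region held 3 MEF2 sites, of which the one shown is nearest to the Des+/+ basal summit and was covered in Des+/+ basal alone, while the most upstream one was covered in both basal lists. Of the pair of Mef2c sites shown in intron 4, the first was covered in both basal lists and the second in Des-/- basal. These matches describe letters of the reference and do not measure binding.

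Promoter sequences of 7 of the 8 genes, in 10 windows, were matched in RefSeq, with no entry for Myocd. A CArG box was present in 1 of the 10 windows (Srf) and in 1.47% of all 32851 promoter windows, and a MEF2 site in 1 of the 10 (Hdac5) and in 2.92% of all. The GC box (GGGCGG) was present in 5 of the 10 windows and in 32.7% of all, and the CCAAT box in 6 of the 10 and in 33.8% of all. TATAAA was present in 4 of the 10 and in 12.4% of all, and the cAMP response element in 0 of the 10 and in 1.55% of all. In windows of 300 bases around peak summits, a MEF2 site was found for 5 of 25 member peaks of Des+/+ basal, 1 of 22 of Des-/- basal, 1 of 21 of Des+/+ swim and 0 of 13 of Des-/- swim. The shares over all peaks were 1.60%, 1.66%, 1.63% and 1.51%. The 5 peaks in Des+/+ basal belonged to Mef2a, Mef2c (2 peaks), Hdac4 and Hdac9. These counts depend on where the summit fell. The Mef2a site lay under the promoter peak in all 4 lists but in the summit window of Des+/+ basal alone. A CArG box was found for 1 of 25 member peaks of Des+/+ basal, at Srf, and for no member peak of the other lists, against 1.02%, 1.10%, 0.950% and 0.932% of all peaks.

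Mef2a (chr7:67231163-67372858, minus strand) encodes a MEF2 factor abundant in adult heart. Its main acetylation was a single promoter peak that covered the start in all 4 lists. The peak was 94 (Des+/+) and 93 (Des-/-) reads high in the basal lists and 63 and 56 reads high in the swim lists, over inputs of 4, 4, 4 and 9 reads. This was the highest member peak of Des+/+ basal and of Des+/+ swim, and in Des+/+ basal 1.30% of all peaks were at least as high. Beside it, each basal list had 1 low intergenic peak, 17 reads high at chr7:67421920-67422696 in Des+/+ and 15 reads high at chr7:67451703-67452109 in Des-/-. These outlying peaks did not overlap each other and had no partner in a swim list.

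Mef2c (chr13:83504034-83667080, plus strand) encodes the MEF2 factor required for heart formation. It had 8 (Des+/+) and 6 (Des-/-) peaks in the basal lists and 5 and 3 in the swim lists, which covered 12.5, 13.1, 5.65 and 6.17 kb. Its most upstream annotated start had no peak in any list. Of its 27 annotated starts, 20 lay under a peak in each basal list and 18 in each swim list, all of them at the promoters described next.

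The downstream Mef2c promoter, at chr13:83570769-83576899 over the lists, carried the gene's strongest acetylation. Its highest peak reached 50 (Des+/+) and 57 (Des-/-) reads in the basal lists and 31 and 27 reads in the swim lists. In the basal lists it was a single block of 5083 bp in Des+/+ and 5764 bp in Des-/-, ranks 34 and 25 in width within their lists. In the swim lists the block was called as 3 peaks in Des+/+ and 2 in Des-/-, set apart by 1 to 33 bp and with a summed width of 4051 and 4240 bp. The upstream promoter at chr13:83523202-83526585 was 30, 22, 18 and 18 reads high in the 4 lists. The peak began further downstream in the swim lists, so that the window of 250 bases before this start lay wholly under a peak in both basal lists and under none in either swim list.

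Away from these promoters Mef2c had 5 intronic regions, 15 to 25 reads high, of which 4 were found in basal lists and in no swim list. The 25 reads in intron 4 in Des+/+ basal were above that list's median of 23 reads, and the other basal heights were below 23. A region in intron 4 (chr13:83603216-83605353), with 4 MEF2 sites in all, was 25 reads high in Des+/+ basal over an input of 7 reads and 19 in Des-/- basal over an input of 2 reads. Regions in intron 2 at chr13:83565735-83567444 (15 and 19 reads) and chr13:83568795-83569492 (15 and 15 reads) were likewise in both basal lists, and one at chr13:83532057-83532680 (17 reads) in Des+/+ basal. The exception was an intron 1 region at chr13:83518021-83519069, which was 20 and 18 reads high in the basal lists and 16 reads high in Des+/+ swim, with no peak in Des-/- swim.

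Mef2d (chr3:88142372-88172086, plus strand) encodes the MEF2 factor linked to stress signalling in adult heart. Its promoter and upstream region (chr3:88137638-88146448) was acetylated in all lists, with a highest peak of 74 (Des+/+) and 65 (Des-/-) reads in the basal lists and 41 and 52 reads in the swim lists. Mef2d had 3, 6, 5 and 3 peaks, of which 2, 3, 4 and 2 lay in this stretch. In Des+/+ basal the promoter peak was 6095 bp wide, rank 13 of 15757. In Des-/- basal the stretch was called as 3 peaks set apart by 1 bp each, and the summed width over this region was 7880, 8322, 6871 and 6303 bp in the 4 lists. An intron 1 region at chr3:88148426-88151024 was 28, 26, 19 and 17 reads high. Low peaks at chr3:88132985-88134183 (18 reads) and chr3:88151176-88151661 (15 reads) appeared in Des-/- basal and in no other list.

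**Figure D2:**
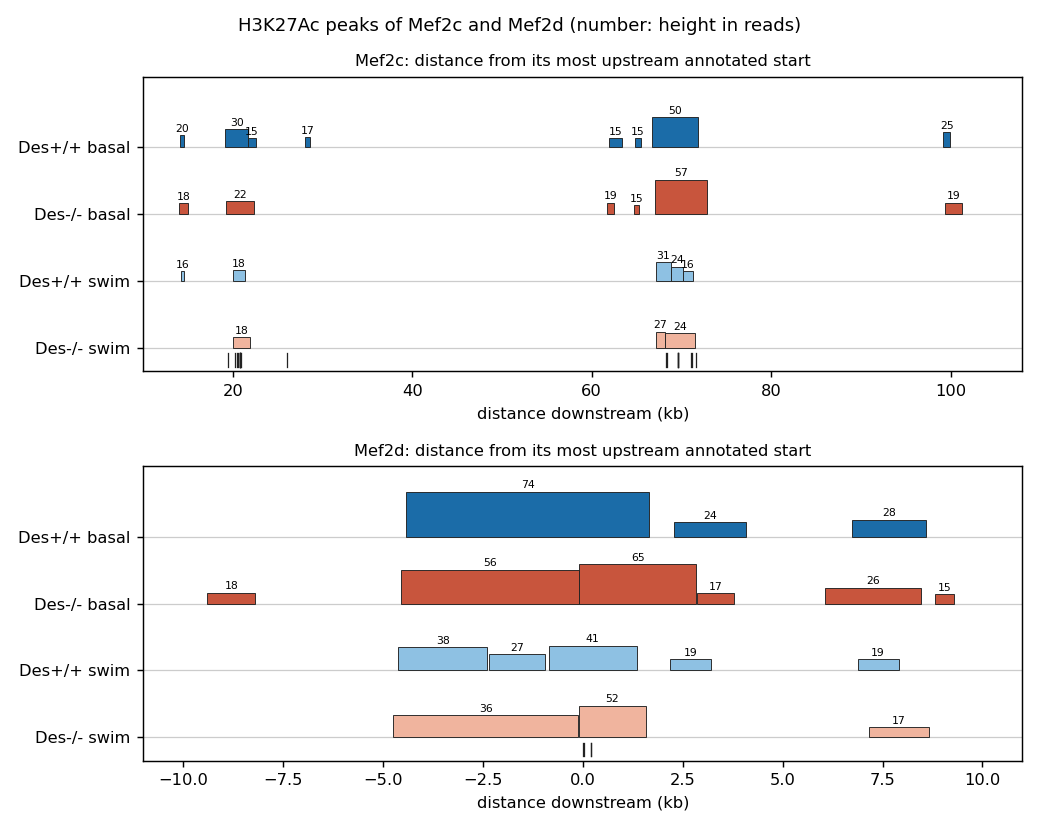
Peaks are drawn as bars whose height is proportional to reads, printed above each bar, along the distance in kb from the most upstream annotated start of Mef2c (which lies to the left of the plotted stretch) and of Mef2d, with annotated starts as ticks. Both Mef2c promoters are acetylated in all 4 lists, with 50, 57, 31 and 27 reads at the downstream promoter, while the intron 4 peak of 25 and 19 reads is in the basal lists.

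Srf (chr17:46548329-46556175, minus strand) encodes serum response factor. It had 2 peaks in every list. The promoter peak with the CArG boxes shown above was 77 (Des+/+) and 87 (Des-/-) reads high in the basal lists and 40 and 45 reads high in the swim lists, over inputs of 4, 3, 3 and 7 reads. Both basal values were above both swim values. The second peak, inside the gene, was 26, 27, 15 and 16 reads high. It adjoined a higher peak of 37, 36, 24 and 18 reads that the annotation gave to Mir6976, a microRNA gene inside Srf, so by gene name the count missed a peak in every list. The joined region (chr17:46552342-46554229) held 1 further CArG box.

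Myocd (chr11:65176561-65269989, minus strand) encodes myocardin. Its promoter peak (chr11:65268948-65269987) was 16 reads high in both basal lists and in Des+/+ swim, and the Des-/- swim list had no peak there. Heights this close to the smallest listed height of 15 reads leave a difference at this gene not detectable at this depth. Intron 5 had a peak of 15 reads in Des-/- basal and another of 16 reads in Des+/+ swim, at positions that did not overlap.

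Hdac4 (chr1:91928779-92195699, minus strand) encodes a deacetylase of cardiac and skeletal muscle. Its promoter peak at chr1:92179225-92181419 was 82 (Des+/+) and 93 (Des-/-) reads high in the basal lists and 52 and 72 reads high in the swim lists, over inputs of 4, 3, 2 and 8 reads. The Des-/- swim value was the highest of any member peak in that list. In both swim lists the peak was called as 2, set apart by 110 and 94 bp, so that both pieces count among the 5 Hdac4 peaks of Des+/+ swim. An intergenic region at chr1:92214705-92215543 had 19 reads in Des+/+ basal and 22 in Des+/+ swim, and no peak in either Des-/- list. Low peaks at internal Hdac4 starts (15 and 18 reads) and in intron 2 (18 reads) were also found in Des+/+ lists and in neither Des-/- list. Hdac4 thus had 3, 1, 5 and 2 peaks in the 4 lists, or 3, 1, 4 and 1 with adjoining peaks joined. The peaks found in Des+/+ lists alone were near the smallest listed height of 15 reads, so a difference between genotypes there is not detectable at this depth. The share of all genes with such a pattern was not computed.

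Hdac5 (chr11:102194432-102230166, minus strand) encodes a deacetylase that leaves the nucleus of heart cells under stress. By gene name it had 4, 2, 1 and 2 peaks, and those at the promoter were all in the swim lists. The promoter peak in both basal lists and its larger part in Des+/+ swim were instead assigned to Mir8101, a microRNA gene that overlaps the Hdac5 promoter. Counted by position (chr11:102229417-102230886), the promoter was acetylated in every list, with a highest peak of 34 (Des+/+) and 36 (Des-/-) reads in the basal lists and 22 and 28 reads in the swim lists. Of the 18 annotated Hdac5 starts, 7 lay under a peak in each of the first 3 lists and 1 in Des-/- swim, where the promoter was called as a pair of peaks. Input was 4, 2 and 3 reads in the first 3 lists and 8 reads in Des-/- swim, where the ratio of height plus 1 to input plus 1 was 3.22. The internal peaks of Hdac5, between chr11:102216963-102217369 and chr11:102219019-102220506, were 15 to 24 reads high in the basal lists. None of these internal peaks was in a swim list.

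**Figure D3:**
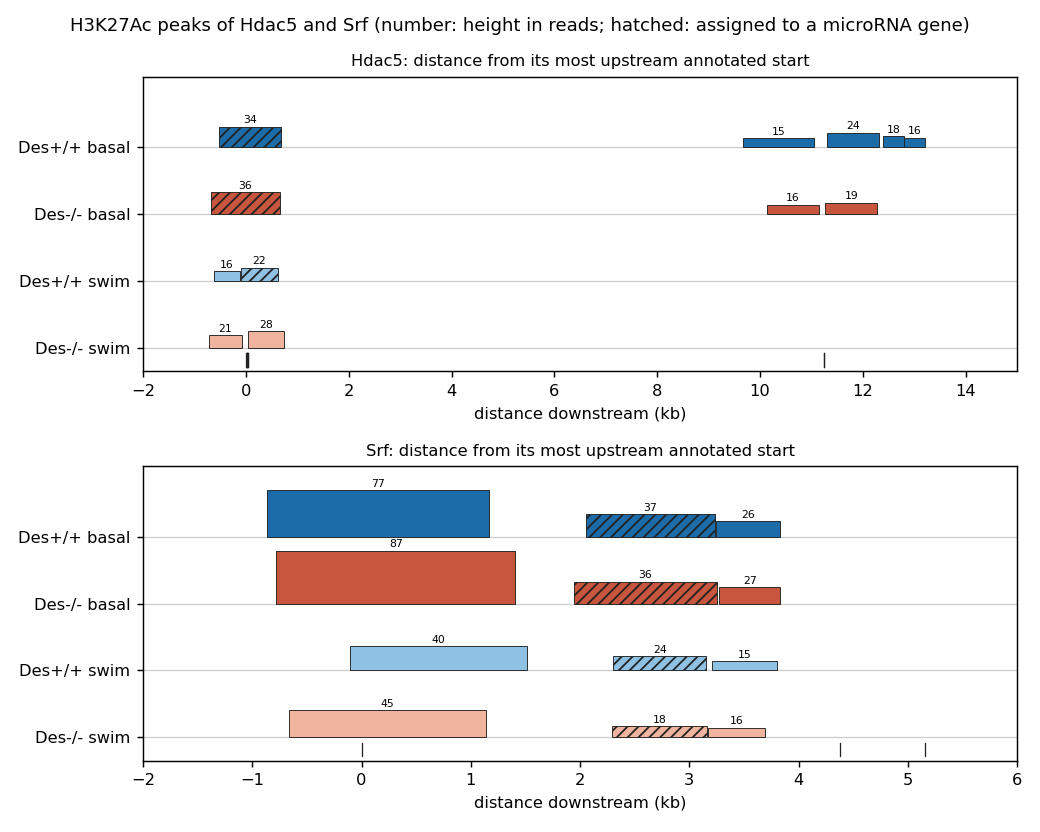
Peaks of Hdac5 and Srf are drawn along the distance in kb from the most upstream annotated start, with bar height proportional to reads and hatched bars for peaks assigned to Mir8101 or Mir6976. The Hdac5 promoter holds a peak in every list (34, 36, 22 and 28 reads) once the hatched bars are counted, and the internal Hdac5 peaks are basal.

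Hdac9 (chr12:34047580-34917095, minus strand) encodes a MEF2-binding deacetylase of muscle. It had 3 peaks in all, the fewest of the 8 genes. None of its 7 annotated starts lay under a peak in any list. Des+/+ basal had 15 reads in intron 1 (chr12:34516957-34517386) and 15 reads in intron 3 (chr12:34826244-34826978), and Des-/- basal had 16 reads at another place in intron 1 (chr12:34452796-34453468). No position was shared between lists.

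The promoters differed in sequence. The ratio of observed to expected CpG dinucleotides in the 250 bases before the start was 0.930 at Hdac4, 0.887 at Mef2a and 0.788 at Srf. These were the genes with the highest peaks in both basal lists. The ratio was 0.574 at Mef2d and 0.521 at Hdac5. The median over all promoters was 0.373. The Hdac9 windows, at 0 and 0.175, and the most upstream Mef2c window, at 0.149, had no peak in any list. The downstream Mef2c promoter stood apart from this order, with 0.261 and a peak of 50 reads in Des+/+ basal. In the swim lists Mef2d, with 41 (Des+/+) and 52 (Des-/-) reads, was also above Srf, with 40 and 45 reads. With 10 windows from 7 genes this is a description.

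**Figure D4:**
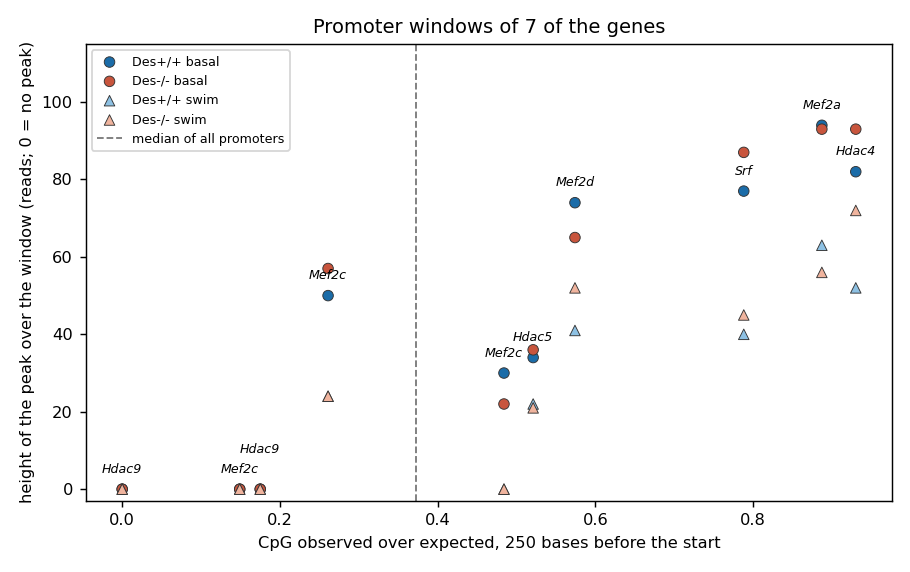
Each point is a promoter window in a list, with CpG observed over expected on the x axis and the height in reads of the peak over the window on the y axis (0 where no peak overlapped it), and the dashed line is the median of all promoters (0.373). Windows at 0.788 or above had 77 to 94 reads in the basal lists and 40 to 72 reads in the swim lists, and 3 windows below 0.2 had no peak.

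Genotypes were then compared within each condition, which asks what desmin loss changed. In the basal state, 8 of 25 member peaks of Des+/+ had no partner, that is no overlapping peak, in Des-/- (32.0%, Wilson interval 17.2 to 51.6%), against 14.5% of all peaks of that list. In the other direction 5 of 22 had no partner (22.7%, 10.1 to 43.4%), against 19.7% of all. The Des+/+ peaks without a partner were 15 to 19 reads high and belonged to Hdac4, Hdac5 and Hdac9 (2 each), Mef2c and Mef2a (1 each). The Des-/- peaks without a partner were 15 to 18 reads high, at Mef2d (2), Mef2a, Myocd and Hdac9. After swimming, 7 of 21 member peaks of Des+/+ had no partner in Des-/- (33.3%, 17.2 to 54.6%), against 27% of all peaks, at Hdac4 (3), Myocd (2), Mef2c and Mef2d. None of 13 member peaks of Des-/- swim lacked a partner in Des+/+ swim, which allows up to 22.8%, against 22.2% of all peaks of that list. The counts without a partner depended on low peaks. With 20 reads as the smallest height in both lists, they were 3 of 12 and 0 of 9 in the basal state (12.7% and 17.9% of all peaks). After swimming they were 1 of 10 and 0 of 10 (17.3% and 26.3% of all). This cut also removes partners below 20 reads. The 3 Des+/+ basal peaks, at Hdac5 and Mef2c, had Des-/- partners of 18 or 19 reads in the full lists. Of the 13 peaks of Des-/- swim, 12 lay within 3 kb of a start and 1 in Mef2d intron 1, and all 13 also had a partner in Des-/- basal.

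Member regions held by both genotypes had height ratios near 1. In the basal state the height ratio of Des-/- to Des+/+ over 15 member regions ranged from 0.733 to 1.27 with a median of 0.989, against a median of 1.06 over all 12247 shared regions. Over 10 member regions after swimming it ranged from 0.871 to 1.38 with a median of 1.09, against 1.11 over all 7492. None of these regions was higher or lower by 1.5-fold. In the basal state 5.43% of all shared regions were higher by 1.5-fold in Des-/- and 1.96% were lower, and after swimming 9.16% were higher and 1.79% lower. The ratio farthest from 1 was 1.38 at Hdac4 after swimming (52 to 72 reads, interval 0.956 to 2.02), where input rose from 2 to 8 reads. The basal ratios of the strongest promoters had intervals of 0.735 to 1.33 at Mef2a, 0.822 to 1.56 at Srf and 0.834 to 1.55 at Hdac4, and so include 1.

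Swim was then compared with basal within each genotype, which asks how acetylation differed with the exercise stress. Each list enters 2 of the 4 comparisons, so the comparisons are not independent. In Des+/+, 13 of 25 basal member peaks had no partner after swimming (52.0%, 33.5 to 70.0%), against 39.0% of all peaks, and they belonged to Mef2c (5), Hdac5 (4), Hdac9 (2), Hdac4 and Mef2a. In Des-/-, 13 of 22 had none (59.1%, 38.7 to 76.7%), against 44.8% of all, at Mef2c (4), Mef2d (3), Myocd (2), Hdac5 (2), Hdac9 and Mef2a. These peaks were 15 to 25 reads high in Des+/+ and 15 to 19 in Des-/-. New peaks were few. In Des+/+ swim 3 of 21 member peaks had no basal partner (14.3%, 4.98 to 34.6%; 8.39% of all peaks), at Hdac4 (2) and Myocd, and in Des-/- swim this was 0 of 13, which allows up to 22.8% (6.28% of all peaks). With 20 reads as the smallest height in both lists, 7 of 12 basal peaks of Des+/+ and 3 of 9 of Des-/- had no swim partner (43.9% and 40.9% of all peaks). Partners below 20 reads are removed by this cut too, and all 3 of the Des-/- peaks and some of the 7 had one in the full lists. With lists of equal size, 3 of 12 basal peaks of Des+/+ had no swim partner (24.0% of all). In the other direction 5 of 20 swim peaks had no basal partner (17.4% of all), so the member shares were equal. In Des-/- these were then 0 of 9 (24.4% of all) and 0 of 13 (16.8% of all).

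Of the member regions held in both conditions, 11 of 13 in Des+/+ and 9 of 9 in Des-/- had a lower height after swimming. Most shared regions of the genome were lower as well in both genotypes, with medians below 1. A lower height by itself therefore does not set the members apart from the genome. In Des+/+ the median ratio of swim to basal height was 0.649 over 13 member regions and 0.741 over all 9087. In Des-/- it was 0.654 over 9 member regions and 0.756 over all 8706. Lower by 1.5-fold were 7 of the 13 in Des+/+ (34.6% of all shared regions) and 5 of the 9 in Des-/- (30.2% of all). Higher by 1.5-fold were 0 member regions in either genotype (0.231% and 0.299% of all). After division by the median of all shared regions, 0 of the 13 and 2 of the 9 (the downstream Mef2c promoter and the intronic Srf region) were lower by 1.5-fold, against 3.86% and 3.03% of all, and the intergenic Hdac4 region was higher in Des+/+ (5.27% of all). Library depth and swimming cannot be told apart in the heights as deposited. Regions that were high in the basal list had lower ratios. Listed heights are at least 15 reads, so a region that was low in the basal list could not show a low ratio. Over all regions of at least 50 reads in the basal list the median was 0.661 in Des+/+ and 0.673 in Des-/-. The member medians also include regions below 50 reads, so these sets are unlike.

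Among the 8 genes, the Srf promoter had the lowest ratio in Des+/+ and a near-equal ratio in Des-/-. It went from 77 to 40 reads in Des+/+, a ratio of 0.519 (exact interval 0.345 to 0.771), and from 87 to 45 reads in Des-/-, a ratio of 0.517 (0.353 to 0.750). In Des-/- the downstream Mef2c promoter was lowest, from 57 to 27 reads with a ratio of 0.474 (0.288 to 0.761), while in Des+/+ it went from 50 to 31 reads with a ratio of 0.620 (0.383 to 0.990). These regions stood at percentiles 6.44 and 4.32 (Srf) and 23.2 and 1.52 (Mef2c) of all shared regions in Des+/+ and Des-/-. Mef2a was lower after swimming in both genotypes, from 94 to 63 reads (0.670, 0.479 to 0.932) and from 93 to 56 reads (0.602, 0.424 to 0.848). Mef2d and Hdac4 had intervals below 1 in Des+/+, at 0.554 (0.369 to 0.822) and 0.634 (0.439 to 0.909). The Des+/+ intervals of Mef2a, Mef2d and Hdac4 all include 0.741, the median of all shared regions. Among all shared regions these genes stood at percentiles 34.6, 10.8 and 26.4 in Des+/+ and 15.2, 60.6 and 54.2 in Des-/-. In Des-/- the ratio was 0.800 (0.545 to 1.17) at Mef2d and 0.774 (0.561 to 1.06) at Hdac4, where the input rose from 3 to 8 reads at both genes. The difference between the genotypes in these ratios was not tested.

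**Figure D5:**
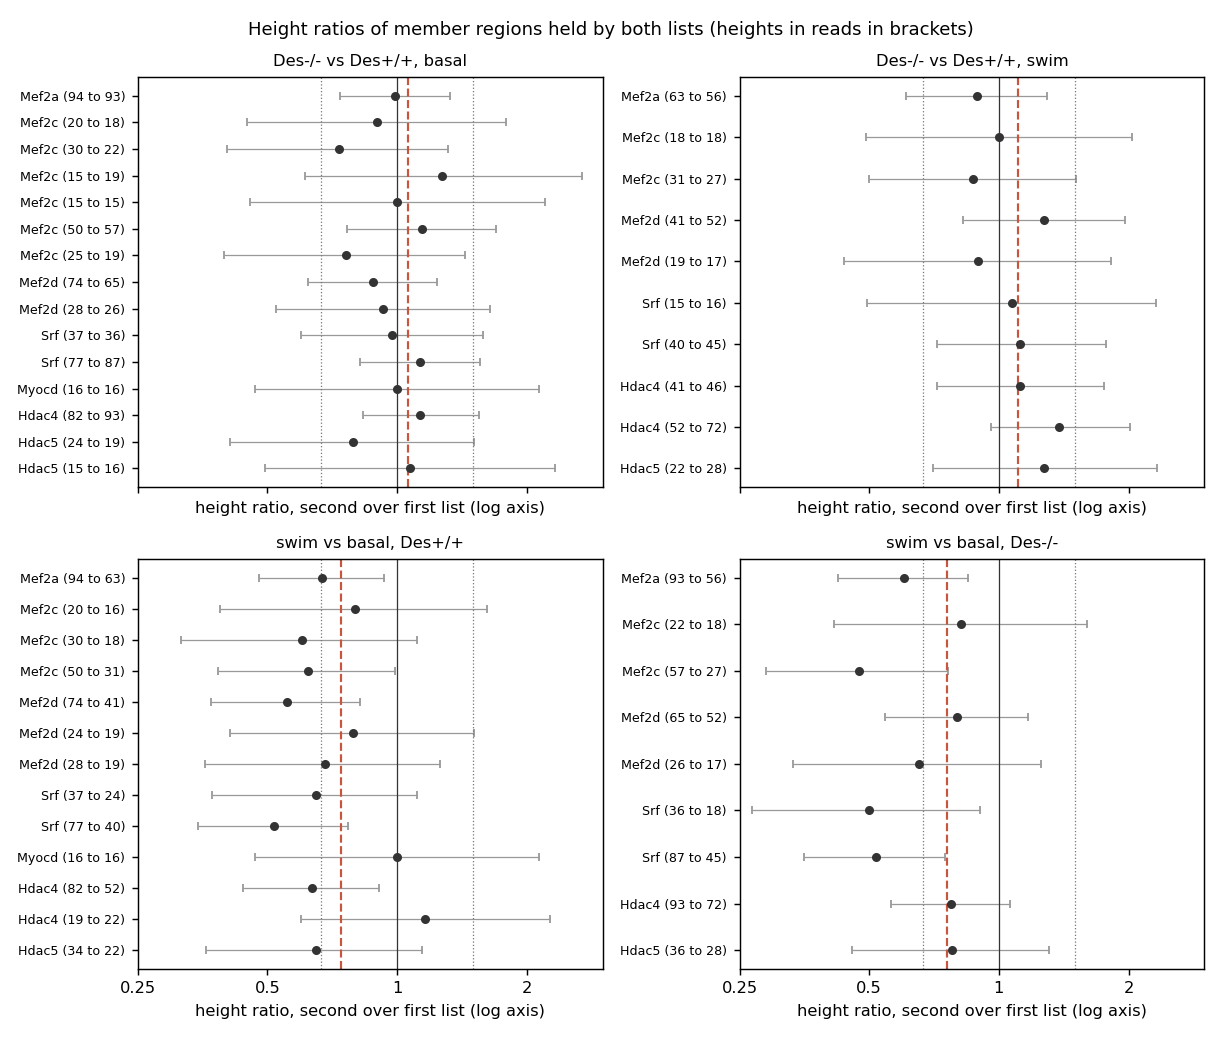
Each point is the height ratio of a member region held by both lists of a comparison, on a log axis, with its exact 95% interval, the 2 heights in reads in brackets, the median of all shared regions as a dashed line and 1.5-fold as dotted lines. Ratios of Des-/- to Des+/+ lie around 1, from 0.733 to 1.38, and ratios of swim to basal lie mostly below 1, down to 0.519 at Srf in Des+/+ and 0.474 at Mef2c in Des-/-.

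Genes that act with the 8 members were acetylated to different degrees. The share of all genes with a peak was not computed for each list, so the counts of genes with a peak in these gene lists stand without it. Of 7 SRF cofactor genes, 6, 5, 4 and 4 had a peak in the 4 lists. Elk4, a ternary complex factor that binds DNA beside SRF, had the highest peak of this list, with 134, 138, 75 and 100 reads, and Elk1 had no peak. Peaks at Elk3, another ternary complex factor, numbered 9, 7, 3 and 4, and those at Fhl2, a LIM protein that binds SRF, numbered 6, 6, 5 and 1. Among the relatives of the members, Mef2b and Hdac6 had no peak in any list, while Hdac7 had 5, 7, 1 and 2 peaks with a highest of 49, 51, 37 and 36 reads.

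Of 18 genes of kinases and phosphatases that act on class II deacetylases or MEF2, 15, 15, 14 and 13 had a peak. Sik1, a salt-inducible kinase that phosphorylates these deacetylases, had the highest peaks of the list (82, 92, 71 and 71 reads) and the largest number of peaks (7, 8, 11 and 10). Its peaks covered 13845 and 13788 bp in the swim lists against 11971 and 12390 bp in the basal lists. Camk2d, the main cardiac isoform of CaM kinase II, had 4, 6, 3 and 3 peaks, Sik3 1, 4, 3 and 1, and Grk5, a G protein-coupled receptor kinase, 4, 5, 2 and 3. Camk4 and Prkd1 had no peak. Of 7 genes of 14-3-3 proteins, which hold phosphorylated deacetylases in the cytoplasm, 6 had a peak in every list, Ywhaz was highest with 113, 126, 78 and 89 reads, and Sfn had none.

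Of 23 target genes of MEF2 and SRF, 18, 16, 15 and 10 had a peak, in lists of 15757, 16638, 11157 and 10407 peaks. Those with peaks in all lists included Nr4a1, a nuclear receptor gene with 6, 6, 9 and 7 peaks, and Actb, the cytoplasmic actin gene with 3, 6, 5 and 3. The highest peaks of this list were at Actb in Des+/+ basal (119 reads) and in Des-/- swim (105 reads), and at Myom1, a gene of the sarcomere M-band, in Des-/- basal (129 reads) and Des+/+ swim (112 reads). Whether the fall from 18 to 10 targets with a peak differs from that over all genes was not tested. Some targets, among them genes not named here, had a peak in every list but Des-/- swim. This was the pattern of 8.75% of all genes with a peak. Myl2, the ventricular myosin light chain gene, had 5, 3, 2 and 0 peaks, and Nppb, the B-type natriuretic peptide gene, had 4, 4, 4 and 0. The smooth and skeletal muscle genes Acta1, Acta2, Tagln and Cnn1 and the atrial peptide gene Nppa had no peak in any list.

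By acetylated length over the 4 lists, the gene most like Mef2a was Serpinh1, with a Euclidean distance of 0.162 in log2 bases among 10926 other genes. It was Cradd for Mef2c (0.484), Klf2 for Mef2d (0.259), Crlf2 for Srf (0.135), Alpk2 for Hdac4 (0.400) and Wbp2 for Hdac5 (0.469). Each distance rests on 4 values.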

How the data were processed

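H3K27Ac and lamin A/C were precipitated from adult cardiomyocytes of Des+/+ and Des-/- mice, and the 4 H3K27Ac peak lists were used here. Of the series' 16 samples, 8 are inputs. Per the labels, the authors aligned reads to GRCm38 (mm10) with Bowtie2 2.4.4, processed them with SAMtools 1.13, called peaks in each library against its input with their own scripts and annotated them with ChIPseeker 1.36.0. How reads were extended, whether duplicates were removed and whether input was scaled are not given in the sources used here. The deposited height and input height are coverage signals in reads. The deposited fold is the ratio of height plus 1 to input plus 1. The deposited p-value and false discovery rate, by which the authors kept peaks, were not used further. The deposited distance to the nearest start is a score in bp.

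The 8 genes, the gene lists and the comparisons were chosen with earlier results of these data known. Peaks overlapping by 1 bp were partners, and shared regions were compared by their highest peaks. Named genes were the 8 members and, of the gene lists, those with no peak in any library, with peak numbers differing by 3 or more between lists, or with the highest peak. For each member with a peak in every list, the gene nearest in log2(bp + 1) was named. Promoter peaks lay within 3 kb of a start, while the deposited promoter label reaches 1 kb. Wilson, Poisson and conditional binomial intervals assume independent reads. Genomic positions of genes are from GENCODE M21. Python 3.11.15, pandas 2.3.3 and SciPy 1.17.1 were used, and overlap and ratio code was tested on simulated data. Lamin A/C peaks were left out. Library read totals were not used here, so differences in depth show only through heights. Alternatives are given in the closing section.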

Additional observations from a re-analysis of the deposited data

Results flagged for a closer look

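A signal lay over the 3′ end of Mef2a outside the peaks counted for the gene and used in no comparison. It was assigned to the neighbouring gene Lysmd4 and was 22 reads high in Des+/+ basal and 17 reads high in Des-/- basal, each over an input of 2 reads, with no peak there in the swim lists.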

How the results depend on the processing

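With 1 library per genotype and condition, no replicate could be left out. No paired analysis was possible because no result comes from a test. Of 88 recomputed counts, 59 stayed within 1.5 times the reported count. All 94 recomputed height ratios of single member regions stayed within their counting intervals. Member peaks at least 20 reads high numbered 12 and 9 in the Des+/+ and Des-/- basal lists and 10 in Des+/+ swim, and with lists of equal size there were again 12 and 9 in the basal lists. With 20 reads as the smallest height in both lists, peaks without a partner numbered 3 of 12 (Des+/+ basal against Des-/- basal), 0 of 9 (reverse), 1 of 10 (Des+/+ swim against Des-/- swim), 7 of 12 (Des+/+ basal against swim), 1 of 10 (reverse) and 3 of 9 (Des-/- basal against swim). The shares of all peaks were 12.7%, 17.9%, 17.3%, 43.9%, 4.89% and 40.9%. With equal list sizes these were 3 of 12, 0 of 9, 7 of 20, 3 of 12, 5 of 20 and 0 of 9. The shares of all peaks were then 15.1%, 15.8%, 25.1%, 24.0%, 17.4% and 24.4%. For Des-/- swim against Des+/+ swim it was 1 of 13 (25.0% of all). Among peaks above their list's median height, with partners of any height, the counts were 0, 0, 1, 2, 0 and 0. The share over all peaks was not computed for this setting, so these counts are not set against the genome. Divided by the median ratio of all shared regions, 0 member regions in Des+/+ and 2 in Des-/- were lower by 1.5-fold after swimming (3.86% and 3.03% of all regions), and 1, the intergenic Hdac4 region, was higher in Des+/+ (5.27%). At 2-fold, 0 and 2 were lower (4.90% and 3.03% of all regions). With input subtracted, 1 region, in Mef2c intron 2, was higher in Des-/- basal than in Des+/+ basal. Overlap, fold, promoter distance and gene body settings, and the joining of adjoining peaks, which was chosen after seeing the data, kept the counts within 1.5 times. At a fold of at least 4 the shares of all peaks moved. Without a partner were 7 of 20 member peaks of Des+/+ swim in Des-/- swim (51.6% of all) and 2 of 20 in Des+/+ basal (10.7%). For Des-/- basal against swim it was 11 of 20 (65.7%). In these comparisons the member share was then below that of all peaks, not above it.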
